A study of Homo sapiens with 8 samples.

Results

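The BTG and TOB genes are a small family of antiproliferative genes, and 5 of them, BTG1, BTG2, BTG3, TOB1 and TOB2, were followed in Raji and Raji-4RH cells treated with chidamide. The members were picked by gene symbol from a table of 63967 gene labels, of which 18143 could be given their values, and all 5 had values in all 8 libraries. All 5 also passed the filter on low values, which kept the 10710 genes that reached 1 FPKM in 2 or more libraries. FPKM is the number of reads of a gene divided by its length and by the size of the library.

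The proteins of this family share an N-terminal domain that binds the deadenylase subunits of the CCR4-NOT complex, the machine that shortens the poly(A) tail of mRNA. The TOB proteins also carry motifs that bind poly(A) binding protein, and BTG1 and BTG2 bind the arginine methyltransferase PRMT1. In lymphocytes, BTG1 and BTG2 are known for keeping resting cells quiescent, and both genes are recurrent targets of mutation in B cell lymphoma.

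Raji is a Burkitt lymphoma cell line that is sensitive to the CD20 antibody rituximab, and Raji-4RH is its rituximab resistant derivative. Cells of each line were given DMSO or 3 μM chidamide, an inhibitor of histone deacetylases, for 24 h, then collected by flow sorting for total RNA sequencing. The 4 groups were Raji DMSO, Raji chidamide, Raji-4RH DMSO and Raji-4RH chidamide, with 2 libraries in each. Each line stands for itself alone, so a difference between the lines is a difference between 1 resistant line and its parent. The labels do not say that the 2 libraries of a group came from separate cultures, so p-values measure only the spread between these libraries. With 2 against 2 libraries an exact permutation test cannot give a p-value under 0.33, and the tests below are those of limma across all 10710 genes. A gene was called where its p-value, adjusted by Benjamini-Hochberg over these genes, was under 0.05. The SE given for a gene rests on 1 estimate of spread shared by the 4 groups, so it is not the spread within 1 line.

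Library totals ranged from 13991697 to 21193441 reads. The shallowest library was Raji-4RH chidamide replicate 1, and this group also had the widest replicate difference, with a chi-square per degree of freedom of 23.4 over 6614 genes against 2.05 to 7.39 in the other 3 groups. All 8 B cell markers were expressed, with summed levels of 1151 to 1191 FPKM in Raji DMSO, 1018 to 1034 FPKM in Raji chidamide, 773 to 814 FPKM in Raji-4RH DMSO and 653 to 682 FPKM in Raji-4RH chidamide. The markers did not move together: CD79A, a B cell receptor subunit, had 537 to 575 FPKM in Raji DMSO and 288 to 292 FPKM in Raji chidamide, while MS4A1, the gene of CD20, went from 53.8 to 58.7 FPKM to 118 to 129 FPKM and CD22 from 80.0 to 83.9 FPKM to 133 to 137 FPKM. The 4 myeloid markers summed to 0.917 to 1.04 FPKM in the DMSO libraries and 9.71 to 10.7 FPKM in the chidamide libraries, and the 4 T cell markers reached 4.89 FPKM, chiefly from CD3E with up to 4.10 FPKM in Raji-4RH chidamide. The erythrocyte gene HBA2 stood at 12.9 FPKM in Raji-4RH chidamide replicate 1, at 0.444 FPKM in replicate 2 and at no more than 0.125 FPKM in any other library. The part of these markers in the results for the family was not tested, and leaving out Raji-4RH chidamide replicate 1 changed the call of no member.

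The deposited values do not stand in the row of their gene throughout the table, and those of the 5 members were taken from 1 row below the label for BTG1 and TOB1, 3 rows below for BTG2 and BTG3, and 7 rows below for TOB2. Within 200 labels on either side of each member, genes of families expected to be active were separated from genes of families expected to be silent with an area under the curve of 0.844 to 0.934 at these distances. At the best other distance from 0 to 16 rows, the area was 0.595 to 0.658. Values read from the label's own row would describe other genes.

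The genes lie on 5 chromosomes of GRCh38 in GENCODE release 29. BTG1 spans 92140278 to 92145897 on the minus strand of chromosome 12, and BTG2 spans 203305491 to 203309602 on the plus strand of chromosome 1. BTG3 spans 17593653 to 17612947 on the minus strand of chromosome 21, TOB1 spans 50862223 to 50867978 on the minus strand of chromosome 17, and TOB2 spans 41433492 to 41447023 on the minus strand of chromosome 22. Reads were summed over joined exons of 4854 bases for BTG1, 2757 for BTG2, 2306 for BTG3, 2521 for TOB1 and 4565 for TOB2. BTG1 shares 503 exon bases with LINC01619 on the same strand and 325 with the antisense gene AC025164.1, BTG3 shares 280 with BTG3-AS1, and TOB1 shares 281 with TOB1-AS1. The library kit does not mark strand, so reads from those bases cannot be told apart between the partners, and none of the 4 partners had a value here. A second label with the symbol BTG3 lay beyond the placed rows and was not used. The pseudogene TOB2P1 had group means of at most 0.154 FPKM.

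The sequences upstream of BTG1, BTG2 and TOB1 are shown because these 3 members rose with chidamide in both lines. They come from RefSeq on GRCh38.p14 and cover the bases of the 250 before the RefSeq start that lie outside the gene's own GENCODE exons, written 5′ to 3′ in the direction of the gene, with matches to any of 6 motifs in capitals. The motifs, searched on both strands after the sequences had been seen, were the GC box GGGCGG, the CCAAT box, TATAAA, the forkhead motif GTAAACA, the CRE-like motif TGACGTNA and the E-box CACGTG.
BTG1, chr12:92145898-92146096, minus strand: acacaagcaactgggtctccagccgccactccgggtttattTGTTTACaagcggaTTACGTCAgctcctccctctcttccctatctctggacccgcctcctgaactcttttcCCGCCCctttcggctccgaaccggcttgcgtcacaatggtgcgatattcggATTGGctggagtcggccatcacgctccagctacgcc
BTG2, chr1:203305269-203305490, plus strand: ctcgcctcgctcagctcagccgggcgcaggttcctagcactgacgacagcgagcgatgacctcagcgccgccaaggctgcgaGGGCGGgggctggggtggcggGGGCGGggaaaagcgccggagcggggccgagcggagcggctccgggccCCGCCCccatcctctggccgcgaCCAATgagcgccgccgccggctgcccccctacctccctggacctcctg
TOB1 outer start, chr17:50867979-50868228, minus strand: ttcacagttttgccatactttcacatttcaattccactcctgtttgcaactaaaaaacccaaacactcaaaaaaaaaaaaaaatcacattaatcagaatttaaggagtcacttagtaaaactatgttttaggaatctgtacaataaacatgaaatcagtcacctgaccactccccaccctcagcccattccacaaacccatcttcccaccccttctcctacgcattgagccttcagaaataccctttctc
TOB1 inner start, chr17:50866355-50866604, minus strand: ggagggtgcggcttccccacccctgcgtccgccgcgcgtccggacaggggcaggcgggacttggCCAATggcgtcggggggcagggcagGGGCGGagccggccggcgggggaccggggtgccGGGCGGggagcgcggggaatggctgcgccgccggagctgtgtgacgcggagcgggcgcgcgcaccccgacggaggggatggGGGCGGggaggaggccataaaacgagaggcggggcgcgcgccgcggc

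The 3 genes that rose had unlike upstream sequences. Over the 250 bases, BTG1 had 56.4% G and C with 18 CpG, BTG2 had 74.8% with 30 CpG, and the 2 RefSeq starts of TOB1 had 38.4% with 1 CpG and 80.4% with 38 CpG, against medians of 58% and 11 CpG over 35116 promoters. BTG1 held 1 match each to the forkhead and the CRE-like motif, which 2.98% and 2.67% of all promoters hold, and its TATAAA, 33 bases before the start, lies in bases that GENCODE counts as exon and is not shown. The CCAAT box was found once in BTG1, BTG2 and the inner start of TOB1, and in 32.01% of all promoters. GC boxes were found in BTG1, BTG2, BTG3, TOB2 and the inner start of TOB1, and in 42.6% of all promoters. The outer start of TOB1 held none of these motifs, and no member held the E-box, which 6.34% of promoters hold. BTG3, which did not rise, had 78.4% G and C with 39 CpG, and TOB2 had 68.4% with 24 CpG, so neither measure set the rising genes apart from these 2. Of the 250 bases of TOB2, 222 lie in its own GENCODE exons, so its values describe mostly exon sequence. The deposited values give 1 number a gene, so the 2 starts of TOB1 cannot be told apart.

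Chidamide treatment of Raji-4RH cells upregulated 3 of the 5 members, BTG1, BTG2 and TOB1, and none was called lower. BTG1 and BTG2 rose 3.76-fold and 3.78-fold in mean FPKM and TOB1 1.80-fold, whereas BTG3 and TOB2 changed by less than the test could call. Of all genes tested in this comparison, 43.3% were called higher and 31.6% lower, so 3 calls among 5 genes are not far from the background. The sizes are farther out, since BTG2 and BTG1 ranked 243 and 277 of 10710 genes by the size of the change.

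BTG1, a binding partner of the CNOT7 and CNOT8 deadenylases first found at a translocation in a B cell leukaemia, had 11.2 and 11.8 FPKM in Raji-4RH cells with DMSO and 40.7 and 46.0 FPKM in those with chidamide. In Raji it had 9.24 and 10.0 FPKM with DMSO and 18.8 and 18.7 FPKM with chidamide. Both chidamide libraries stood above both DMSO libraries in each line, and the resistant line with chidamide stood above every other group. On the log2(FPKM + 1) scale, which understates the change of low genes, BTG1 rose by 1.82 ± 0.07 (SE) in Raji-4RH (limma adjusted p = 1.5e-07) and by 0.89 ± 0.07 in Raji (adjusted p = 1.7e-05). These values rest on 886 to 4116 reads a library.

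BTG2, an early p53 target and growth factor response gene, was the most abundant member in every library. It had 27.6 and 28.2 FPKM in Raji-4RH DMSO, 104 and 106 FPKM in Raji-4RH chidamide, 79.5 and 78.1 FPKM in Raji DMSO, and 191 and 186 FPKM in Raji chidamide. The chidamide libraries of the resistant line thus lay above the parental DMSO libraries and below the parental chidamide ones. No 2 groups overlapped. The rise was 1.88 ± 0.05 (SE) on the log2(FPKM + 1) scale in Raji-4RH (limma adjusted p = 3.6e-08) and 1.24 ± 0.05 in Raji (adjusted p = 4.5e-07), from 1425 to 10824 reads a library. In Raji chidamide, BTG2 reached the 99.2 percentile of the genes with a value above 0.

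TOB1, which couples CCR4-NOT to poly(A) binding protein and is known as a repressor of T cell activation and BMP signalling, had 15.1 and 16.1 FPKM in Raji-4RH cells with DMSO and 28.6 and 27.5 FPKM in those with chidamide. In Raji the levels were 10.1 and 10.8 FPKM with DMSO and 11.5 and 12.8 FPKM with chidamide. The groups of the resistant line were well apart, while the parental groups were separated by less than the spread within Raji chidamide. TOB1 rose by 0.81 ± 0.07 (SE) on the log2(FPKM + 1) scale in Raji-4RH (limma adjusted p = 8.6e-06) and by 0.19 ± 0.07 in Raji (adjusted p = 0.036), from 504 to 1277 reads a library. The call in Raji was lost with median-centred libraries (0.15, adjusted p = 0.099) and without Raji chidamide replicate 2 (0.12, adjusted p = 0.24) or Raji DMSO replicate 1 (0.15, adjusted p = 0.18). It was also lost without Raji-4RH DMSO replicate 1 or 2 (adjusted p = 0.052 each), with only the libraries compared (adjusted p = 0.060) and with no filter (adjusted p = 0.054).

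**Figure D1:**
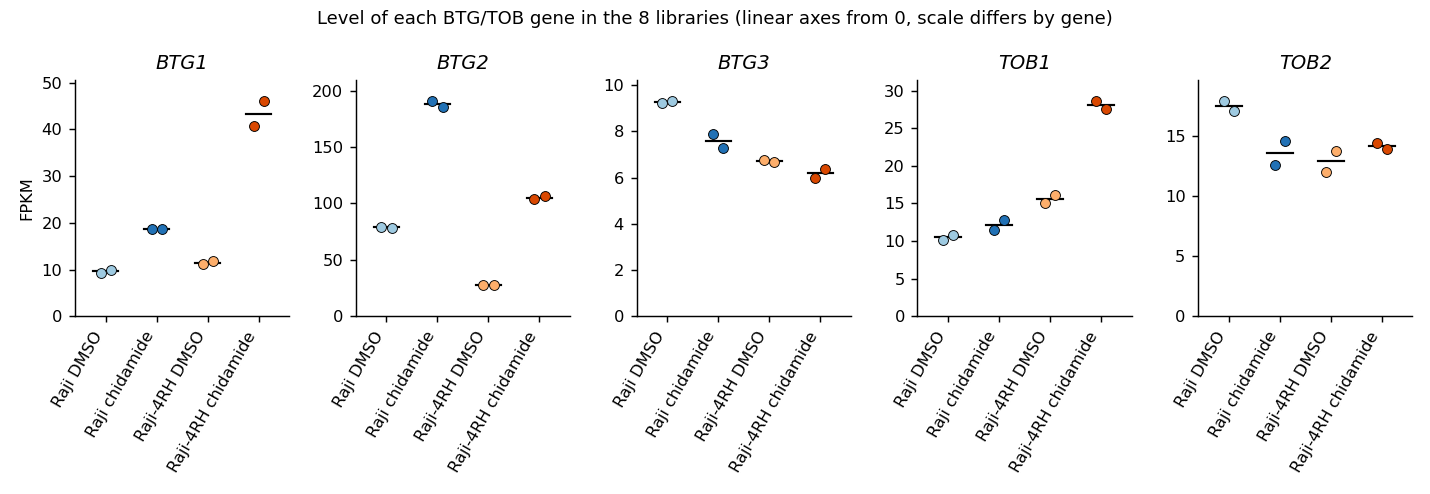
FPKM of each member (vertical axes, linear, from 0, a separate scale for each gene) in the 4 groups, with 1 point for each library and a line at the mean of 2. BTG1, BTG2 and TOB1 were higher with chidamide than with DMSO in each line, with BTG1 at 40.7 and 46.0 FPKM in Raji-4RH chidamide, while BTG3 and TOB2 were highest in Raji DMSO.

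BTG3, a more distant member known as a p53 target and as a binder of the E2F1 transcription factor, had 9.24 and 9.30 FPKM in Raji DMSO and 7.89 and 7.27 FPKM in Raji chidamide. In Raji-4RH it had 6.77 and 6.67 FPKM with DMSO and 5.98 and 6.38 FPKM with chidamide. In both lines the chidamide libraries were the lower ones, without overlap. The fall passed the test in Raji, with -0.26 ± 0.06 (SE) on the log2(FPKM + 1) scale (limma adjusted p = 0.0053), and in Raji-4RH the difference was -0.11 with a 95% interval from -0.24 to 0.03 (adjusted p = 0.14). Without Raji chidamide replicate 2 the value in Raji was -0.21 (adjusted p = 0.054), and after quantile normalization or median centring the value in Raji-4RH, -0.23 or -0.18, was called (adjusted p = 0.0065 and 0.016). BTG3 had the lowest mean level of the 5 members in all 4 groups, with 9.27 ± 0.039 FPKM in Raji DMSO beside 9.64 ± 0.56 FPKM for BTG1 (SD, n = 2 each), and its values rest on 193 to 432 reads a library.

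TOB2, the close relative of TOB1 with the same partners, had 17.9 and 17.1 FPKM in Raji DMSO and 12.6 and 14.6 FPKM in Raji chidamide. It had 12.02 and 13.7 FPKM in Raji-4RH cells with DMSO and 14.4 and 13.9 FPKM in those with chidamide. Raji DMSO stood apart above the other 3 groups, which lay close together. TOB2 fell with chidamide in Raji by 0.35 ± 0.08 (SE) on the log2(FPKM + 1) scale (limma adjusted p = 0.0069). In Raji-4RH the difference was 0.13 with a 95% interval from -0.06 to 0.32 (adjusted p = 0.18), and quantile normalization gave 0.23 (adjusted p = 0.043). Without Raji chidamide replicate 1 the value in Raji was -0.25 (adjusted p = 0.062).

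In Raji cells, chidamide therefore moved all 5 members past the test, BTG1, BTG2 and TOB1 upward and BTG3 and TOB2 downward, beside 31.5% of all tested genes called higher and 28.5% lower. The median change of the 5 members was 0.19 on the log2(FPKM + 1) scale in Raji and 0.81 in Raji-4RH, and that of all tested genes was 0.02 and 0.09. Quantile normalization shifted the median of all genes in Raji-4RH to -0.02, and the split of 4642 genes called higher and 3380 lower became 3718 and 4057. BTG1, BTG2 and TOB1 stayed called higher in Raji-4RH under this and all other alternatives that used the placed rows. In these bulk libraries, fewer cells with a transcript and less of it per cell cannot be told apart.

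**Figure D2:**
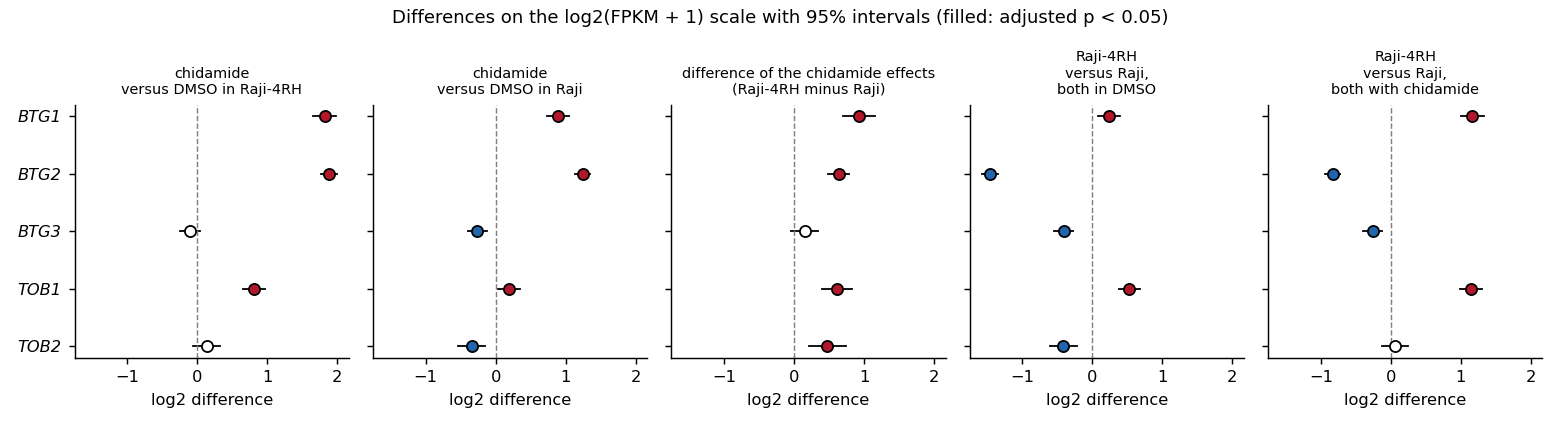
Difference of each member in the 5 comparisons (horizontal axis, log2 of FPKM + 1; bars, 95% intervals of limma), with red for higher and blue for lower at an adjusted p-value under 0.05 and white for not called. BTG1 and BTG2 lie at 1.82 and 1.88 for chidamide in Raji-4RH, and TOB2 at 0.06 is the white point for the lines under chidamide.

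The change with chidamide differed between the lines for 4 of the 5 members, by the interaction term, which subtracts the change in Raji from that in Raji-4RH on the log2(FPKM + 1) scale. BTG1, BTG2 and TOB1 rose more in Raji-4RH, while TOB2 fell in Raji and did not pass the test in Raji-4RH. Of all genes tested, 27.2% were called higher and 21.7% lower by this term. BTG1 differed by 0.93 ± 0.10 (SE; limma adjusted p = 1.7e-04), BTG2 by 0.64 ± 0.07 (adjusted p = 1.7e-04), and TOB1 by 0.62 ± 0.09 (adjusted p = 0.0011). TOB2 differed by 0.48 ± 0.12 (adjusted p = 0.011), with a change of -0.35 in Raji and 0.13 in Raji-4RH. For BTG3 the difference was 0.16 with a 95% interval from -0.04 to 0.35 (adjusted p = 0.16). These 4 calls held without any 1 library, TOB2 with the smallest values at 0.38 to 0.58.

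With DMSO, all 5 members differed between the lines, with BTG1 and TOB1 higher and BTG2, BTG3 and TOB2 lower in Raji-4RH than in Raji. Of all genes tested, 41.2% were called higher and 32.4% lower in this comparison. BTG2 had the largest difference, with a mean of 27.9 ± 0.43 FPKM in Raji-4RH DMSO against 78.8 ± 0.93 FPKM in Raji DMSO (SD, n = 2 each), or -1.47 ± 0.05 (SE) on the log2(FPKM + 1) scale (limma adjusted p = 3.4e-08). BTG3 and TOB2 differed by -0.41 and -0.42 (adjusted p = 2.8e-04 and 0.0019), and TOB1 by 0.53 (adjusted p = 1.3e-04). BTG1 differed by 0.24 (adjusted p = 0.015), a call lost without Raji DMSO replicate 1 (0.18, adjusted p = 0.098) or Raji-4RH DMSO replicate 2 (0.20, adjusted p = 0.095).

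Under chidamide, BTG1 and TOB1 were higher and BTG2 and BTG3 lower in Raji-4RH than in Raji, beside 44.3% of all tested genes called higher and 35% lower. BTG1 was 2.32-fold and TOB1 2.31-fold higher in mean FPKM, or 1.17 ± 0.07 and 1.15 ± 0.07 (SE) on the log2(FPKM + 1) scale (limma adjusted p = 9.9e-07 and 8.0e-07). BTG2 differed by -0.83 ± 0.05 (adjusted p = 7.5e-07) and BTG3 by -0.26 ± 0.06 (adjusted p = 0.0038). TOB2 was the exception, with overlapping groups and a difference of 0.06 with a 95% interval from -0.13 to 0.25 (adjusted p = 0.52). These comparisons share libraries with each other, so their values stand side by side and are not independent.

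Ordered by level, the groups fell into a different sequence for each of BTG1, BTG2 and TOB1, and were not all told apart for BTG3 and TOB2. BTG1 ran from Raji DMSO through Raji-4RH DMSO and Raji chidamide to Raji-4RH chidamide, and each neighbour in that order differed from the next by the limma test. For BTG2 the order from the lowest was Raji-4RH DMSO, Raji DMSO, Raji-4RH chidamide and Raji chidamide, again with all neighbours different, the closest pair being Raji DMSO and Raji-4RH chidamide at 0.41 on the log2(FPKM + 1) scale. TOB1 ran from Raji DMSO through Raji chidamide and Raji-4RH DMSO to Raji-4RH chidamide, with neighbours apart by 0.19, 0.34 and 0.81. In BTG3 the 2 Raji-4RH groups were not told apart, and Raji chidamide lay 0.15 above Raji-4RH DMSO (adjusted p = 0.044). In TOB2 the 3 lower groups were not told apart, and Raji-4RH chidamide lay 0.28 below Raji DMSO (adjusted p = 0.011).

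Summed over the 5 members, the level was 126 ± 0.37 FPKM in Raji DMSO, 240.1 ± 1.66 FPKM in Raji chidamide, 74.6 ± 2.71 FPKM in Raji-4RH DMSO and 197 ± 4.40 FPKM in Raji-4RH chidamide (SD, n = 2 each). The sum thus went up 1.91-fold in Raji and 2.64-fold in Raji-4RH. BTG2 made up 62.7% of the sum in Raji DMSO and 78.3% in Raji chidamide, but 37.4% and 53.4% in the same groups of Raji-4RH. BTG1 held 7.67% and 7.79% in Raji without and with chidamide, and 15.5% and 22.0% in Raji-4RH. TOB1 held 20.9% in Raji-4RH DMSO, the second largest share there, and 14.2% in Raji-4RH chidamide.

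**Figure D3:**
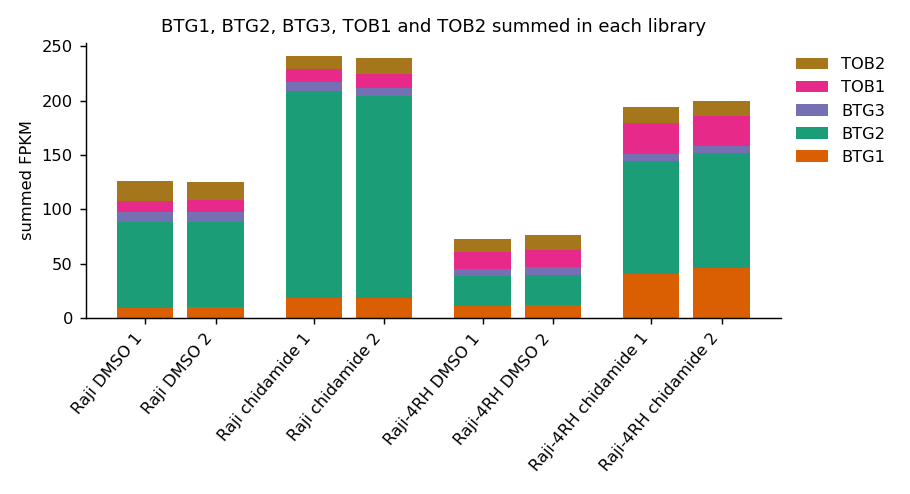
Summed FPKM of the 5 members (vertical axis, from 0) in each of the 8 libraries, with the bar divided by member. The Raji-4RH chidamide libraries reach 194 and 200.1 FPKM, above both DMSO groups and below Raji chidamide at 241 and 239 FPKM, with a larger BTG1 and TOB1 part.

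Among 6613 genes whose mean reached 5 FPKM, those most like each member over the 8 libraries were named by Pearson's r of log2(FPKM + 1), which is a description of libraries that share the same 4 groups. HDAC5, a class IIa histone deacetylase, was most like BTG1 with r = 0.996, followed by MTCH1 and CPEB4. For BTG2 these were GPR160 with r = 0.999, CCNB1IP1 and MAP3K8, and for TOB1 RTN3 with r = 0.995, GOLIM4 and MKRN1. RWDD4 with r = 0.996, GNPNAT1 and AMD1 were most like BTG3. TOB2 had the weakest likeness, with UBAP2L at r = 0.981 and then TFDP2 and LHFPL6 at 0.913 and 0.905.

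Of the partners that the family proteins bind, subunits of CCR4-NOT did not rise in Raji-4RH. The counts of this and the following lists stand beside 43.3% of all tested genes called higher and 31.6% lower with chidamide in Raji-4RH, and 31.5% and 28.5% in Raji. Among its 12 genes, 0 were called higher and 8 lower with chidamide in Raji-4RH, and 1 higher and 3 lower in Raji, with medians of -0.26 and -0.13 on the log2(FPKM + 1) scale. CNOT7 and CNOT8, the deadenylases that the BTG domain binds, fell in Raji-4RH by 0.33 ± 0.06 and 0.16 ± 0.06 (SE; limma adjusted p = 8.7e-04 and 0.032). In Raji their values were -0.14 and -0.03 and did not pass the test, and the interaction did not pass it either (adjusted p = 0.093 and 0.22). The scaffold gene CNOT1 fell by 0.49 in Raji-4RH and 0.37 in Raji, and CNOT9 by 0.95 and 0.63.

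Genes of the poly(A) tail were divided, with 6 called higher and 6 lower of 17 in Raji-4RH and 5 and 7 in Raji. PABPC1, the main cytoplasmic poly(A) binding protein and a TOB partner, rose by 0.42 in Raji-4RH and 0.16 in Raji, and PAIP2, its inhibitor, rose by 0.93 and 0.27. Among the genes called lower, EDC4 fell by 0.74 in Raji-4RH and 0.25 in Raji, and PABPN1 by 0.60 and 0.47. Of 8 arginine methyltransferase genes, 3 were called higher and 4 lower in Raji-4RH and 1 and 5 in Raji. PRMT1, the partner of BTG1 and BTG2, fell by 0.96 ± 0.06 (SE) and 0.69 ± 0.06, and CARM1 fell by 1.14 and 0.54. PRMT6 rose by 0.62 in Raji-4RH and 0.29 in Raji. Other adaptors that bring CCR4-NOT to mRNA had 10 of 15 genes called higher and 2 lower in Raji-4RH, and 8 higher and 3 lower in Raji. ZFP36L1, which binds AU-rich mRNA, rose by 0.40 in Raji-4RH and 2.24 in Raji, with an interaction of -1.84, and CPEB4 rose by 1.33 and 0.78, with an interaction of 0.55.

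Regulators known to act upstream of the family included 4 genes called higher and 2 lower of 7 in Raji-4RH, and 4 and 1 in Raji. TP63 rose by 1.88 and 1.87, FOXO3 by 1.14 and 1.31, and FOXO4 by 1.218 and 0.79 in Raji-4RH and Raji. Of 23 other p53 target genes, 12 were called higher and 8 lower in Raji-4RH and 11 and 6 in Raji, with CDKN1A up by 2.39 and 2.20 and TP53INP1 by 2.84 and 2.04. The falls of this list included AEN at -1.20 and -0.72 and TRIAP1 at -0.94 and -0.45, which were chosen after their values were seen, and SESN2, which fell by 0.97 in Raji-4RH and rose by 0.37 in Raji. Immediate early and growth factor response genes, the class in which BTG2 was first placed, had 13 of 18 called higher and 3 lower in Raji-4RH, and 12 higher and 1 lower in Raji. IER3 rose by 2.75 and 3.06 and DUSP5 by 2.71 and 2.51, while EGR1 fell by 1.115 in Raji-4RH.

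Signalling genes of the SMAD and BMP pathway, in which TOB1 is a known repressor, had 13 of 15 called higher and 0 lower in Raji-4RH, against 4 and 0 in Raji. The median of this list was 0.53 in Raji-4RH and 0.05 in Raji, the second turning to -0.10 after quantile normalization, which called 10 of the 15 genes in either direction in each line. ID1 rose by 1.11 in Raji-4RH with an interaction of 1.36. In Raji its means were only 0.794 FPKM with DMSO and 0.508 FPKM with chidamide. SMAD3 rose by 1.02 and 1.40 and ID2 by 2.08 and 1.63 in Raji-4RH and Raji. Of the 5 D-type cyclin and partner genes, 3 were called higher and 2 lower in Raji-4RH and 1 and 3 in Raji, where CCND3 fell by 1.118 and 0.49 and RB1 rose by 1.07 and 0.67. Of 12 lymphocyte quiescence genes, 7 were called higher and 3 lower in Raji-4RH and 5 and 3 in Raji, with CDKN1B up by 1.41 and 1.25.

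**Figure D4:**
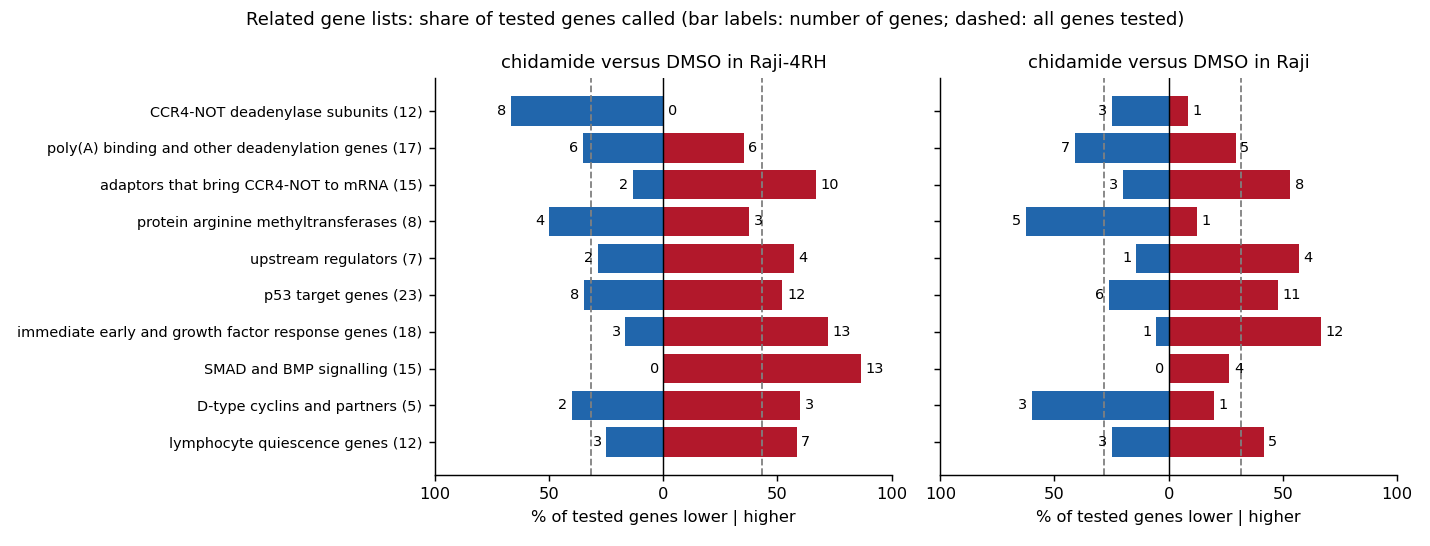
Share of the tested genes of each related list that were called higher (red, to the right) or lower (blue, to the left) with chidamide in Raji-4RH and in Raji (horizontal axis, percent; numbers at the bars, genes called; brackets, genes tested; dashed lines, share over all genes tested). CCR4-NOT has 8 genes lower and 0 higher in Raji-4RH, and SMAD and BMP signalling has 13 higher in Raji-4RH and 4 in Raji.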

How the data were processed

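RNA-seq of 8 libraries was used. Per the processing notes of the submitters, reads were handled with HISAT2 2.0.5, SAMtools 1.7, HTSeq 0.9.1 and DESeq2 1.22.2 on GRCh38; the annotation is not given in the sources used here, and gene lengths equal GENCODE release 29 for 96.6% of 58039 gene IDs. The authors deposited 1 table of FPKM values with a length for each gene. Reads were recovered by multiplying each value by its length and library total, and 100% of those above 0 were whole within a tolerance of 0.02. The table has 63967 labels but 63305 rows of values, since the last 662 rows repeat the first 662, and label and values drift apart along it. Values were taken from a fixed number of rows below the label in each stretch of the table where that number is known, and FPKM was recomputed with the label's own length, which placed 18143 labels and 90.7% to 93.2% of the reads of each library. Genes in other stretches were not analysed here.

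Differences were fitted with limma 3.58.1 in R 4.3.3 (lmFit, contrasts, then eBayes with a trend) without a replicate block. The model took all 8 libraries together and the values log2(FPKM + 1) of the genes that reached 1 FPKM in 2 or more libraries. The p-values are two-sided and were adjusted by Benjamini-Hochberg over all tested genes. A count model was not the main test because the values are FPKM, and limma voom on the recovered reads was run as an alternative. The others were quantile normalization, median-centred libraries, a pseudocount of 0.1, no filter, no trend, only the libraries compared, a replicate block, each library left out, and the values in the row of the label. A crossed replicate block was added after the data had been seen. The code was tested on simulated data. Whether replicate numbers pair the libraries was not settled. Deviations from the group means in same-numbered libraries correlated between -0.377 and 0.256 across the 6 pairs of groups. The highest value was between Raji-4RH DMSO and Raji-4RH chidamide, and the lowest between Raji DMSO and Raji-4RH chidamide.

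The members, the related gene lists and the markers were chosen with earlier results of these data known. Named list genes were up to 3 with the largest change among those called in a comparison whose mean reached 5 FPKM, and genes needed to say what a list is about. The lists hold 12 CCR4-NOT genes and 9 other groups, of which DCP1A, CPEB1, BMPR2 and TXNIP had no placed value. A further list gene is not reported here. Promoter windows were read from RefSeq sequences with Python 3.11.15. The 2 libraries a group limit the precision of each value.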

Additional observations from a re-analysis of the deposited data

Results flagged for a closer look

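The change with chidamide differed between the lines for 4 members, each by the interaction term of limma on the log2(FPKM + 1) scale (Raji-4RH minus Raji). Over all tested genes, 27.2% were called higher and 21.7% lower by this term. The difference was 0.93 for BTG1, 0.64 for BTG2, 0.62 for TOB1 and 0.48 for TOB2. Over the alternatives that used the placed rows it ranged from 0.84 to 1.18 for BTG1, from 0.60 to 0.68 for BTG2, from 0.55 to 0.81 for TOB1 and from 0.38 to 0.58 for TOB2, with adjusted p-values of at most 0.0018, 0.0024, 0.0075 and 0.044. Groups of 2 libraries are too small for a check of single libraries that stand apart.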

How the results depend on the processing

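Over the alternatives that used the placed rows, 379 of 395 results for single members kept their direction and their side of the threshold, 11 lost the call, 3 gained it and 2 turned. Quantile normalization called BTG3 (-0.23) and TOB2 (0.23) with chidamide in Raji-4RH, so that all 5 members were called there. It also called 3718 of all 10710 tested genes higher and 4057 lower in that comparison. Median centring called BTG3 in Raji-4RH (-0.18), lost TOB1 in Raji (0.15) and turned TOB2 between the lines under chidamide (-0.0189, not called in either fit). The cause of these shifts was not tested. TOB1 in Raji was also lost, at 0.19, with no filter and with only the libraries compared.

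Leaving out each library gave 0.12 to 0.26 for TOB1, -0.31 to -0.21 for BTG3 and -0.44 to -0.25 for TOB2 with chidamide in Raji. It gave 0.18 to 0.29 for BTG1 between the DMSO groups and -0.038 to 0.16 for TOB2 between the chidamide groups. Each call lost this way came from a fit with fewer libraries.

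Read from the row of the label, where only BTG3 and TOB1 pass the filter, the values belong to other genes. BTG3 turned to 0.71 in Raji-4RH, 0.71 in Raji, 0.96 between the DMSO groups and 0.96 between the chidamide groups. TOB1 turned to -0.11 in Raji-4RH and -0.29 in Raji, and its interaction was 0.18. In the 5 comparisons 1, 2, 0, 2 and 2 members were called. Out of 17341 genes in this setting, 7073, 4255, 3568, 5996 and 7430 were called higher in the same order. Called lower were 3759, 3162, 2270, 4353 and 4558.

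The replicate block, with BTG1 at 1.82 and BTG2 at 1.88 in Raji-4RH, changed none of the 25 member calls. Deviations of the same-numbered Raji DMSO and Raji chidamide libraries had a weak negative correlation of -0.143. Those of Raji DMSO correlated at -0.309 with Raji-4RH DMSO and at -0.377 with Raji-4RH chidamide. A block with the Raji DMSO numbers exchanged was added after seeing the data. It called 3443 genes higher and 3144 lower in Raji, against 3261 and 2922 with the numbers as given. In Raji-4RH it called 4731 higher and 3459 lower, against 4583 and 3303. With no filter on low values, 7077 of 16843 genes were called higher in Raji-4RH, against 4642 of 10710 with it, a like share. The share called lower was smaller without the filter, with 3353 of 16843 genes against 3380 of 10710. For a list median or count, 159 of 1580 values moved. An interaction within only the libraries compared could not be had, since it uses all 8. The lowest read count behind a member was 193 (BTG3).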

Other observations

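BTG4, the oocyte member of the family, was close to silent, with a mean of 0.0141 FPKM in Raji DMSO and 0 reads in the other 3 groups. Between the lines, 41.2% of all tested genes were called higher and 32.4% lower in Raji-4RH with DMSO, and 44.3% and 35% under chidamide. With DMSO, the p53 targets other than the family were called lower in Raji-4RH for 13 and higher for 8 of 23 genes. The quiescence genes were called lower for 8 and higher for 2 of 12. The medians were -0.21 and -0.61 on the log2(FPKM + 1) scale, beside 0.06 over all genes. SMAD and BMP signalling genes were called higher in Raji-4RH for 11 and lower for 0 of 15, with a median of 0.68, and under chidamide for 13 and 1, with a median of 0.85. D-type cyclin and partner genes were called lower for 4 and higher for 1 of 5 with DMSO. Under chidamide, 3 were called lower and 0 higher. ZFP36L2, a sister of ZFP36L1 that also recruits CCR4-NOT, fell by 0.88 in Raji and rose by 0.62 in Raji-4RH, with an interaction of 1.49. Its direction was opposite to that of ZFP36L1 in Raji and in the interaction, and the same in Raji-4RH. Other interaction values included SESN2, a stress-inducible p53 target, at -1.34, RRM2B, a ribonucleotide reductase subunit, at 1.01, and DUSP2, a MAP kinase phosphatase, at -1.19. RRM2B fell by 0.86 in Raji and did not pass the test in Raji-4RH (0.15, limma adjusted p = 0.12). DUSP2 rose by 0.83 in Raji and fell by 0.37 in Raji-4RH.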
